A study of Mus musculus with 12 samples.

Results

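The genes described here encode the nuclear part of the oxidative phosphorylation machinery of the mitochondrion. They were taken from the gene symbols of the count tables by name, as the Nduf subunits of complex I, the Uqcr subunits of complex III, the Cox4 to Cox8 subunits of complex IV and the Atp5 subunits of complex V, with Ndufaf symbols and those ending in -ps or Rik left out. By its name Atp5sl (Dmac2 in GENCODE M21), an assembly factor of complex I, was kept and counted under complex V. The rule found 80 members among 24062 genes. By symbol alone, 37 were counted under complex I, 8 under complex III, 18 under complex IV and 17 under complex V. Ndufa4 and its paralog Ndufa4l2 are thus under complex I by name only. Complex I oxidises NADH, complex III passes the electrons on to cytochrome c, complex IV hands them to oxygen, and complex V, the ATP synthase, uses the proton gradient that the other complexes build to make ATP. Most subunits of these complexes are encoded in the nucleus, and a small catalytic set is encoded in mitochondrial DNA. In the kidney the tubule segments that reabsorb most of the filtered salt are rich in mitochondria, whereas nephron progenitors are known to lean more on glycolysis. The RNA-binding protein LIN28A, a close relative of LIN28B, is known to bind mRNAs of mitochondrial enzymes, Ndufb3 and Ndufb8 among them, and to raise their translation, which RNA counts do not measure.

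Whole kidneys were taken from mice on postnatal day 3, with 3 kidneys in each of 4 groups. In the LIN28B-Wt1 group (labelled LIN28OE, strain C57BL/6) a doxycycline pulse late in gestation induced a human LIN28B transgene in cells with Wt1-Cre activity, which include the cap mesenchyme, stroma and podocytes, and the control group of the same strain (labelled WT) came from the same litters and dams. In the let-7 KO group (labelled let7KO, mixed CD1 and C57BL/6) the let-7a1, let-7d and let-7f1 genes were deleted in every cell, and its control group (let-7 WT, same mixed background) came from the same litters, with no doxycycline described. Each model came from 2 litters, the first with 2 control and 2 mutant kidneys and the second with 1 of each, so strain, litters and treatment cannot be told apart when the models are set against each other.

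The libraries held 39926235 to 61872736 counts each, and 3 counts, taken as the detection floor, stood for 0.0485 to 0.0751 CPM, counts scaled to library size. The row of mouse Lin28b, to which reads of the human transgene may also map, held 0, 18 and 33 counts in LIN28B controls 1 to 3 and 232, 224 and 71 counts in LIN28B-Wt1 kidneys 1 to 3. The rows of the deleted let-7a-1, let-7d and let-7f-1 held 0 counts in all 3 let-7 KO kidneys and from 0 to 35 counts in the let-7 WT kidneys, too few to check that label. All 5 kidney markers (Pax2, Pax8, Cdh16, Nphs1 and Wt1) were detected in every group, with summed levels of 693 to 1199 CPM. LIN28B-Wt1 kidney 3 stood apart from the other 2 of its group in nearly all genes described here, although its nephron progenitor markers (Six2, Cited1, Eya1, Meox1, Osr1 and Crym) summed to 380 CPM, beside 335 and 326 CPM in kidneys 1 and 2 and 65.7 to 82.7 CPM in the controls. In whole kidneys, fewer cells of a type and less RNA per cell cannot be told apart.

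The mature sequences made from the 3 deleted let-7 genes are shown first, because a direct effect of the deletion would be sought in mRNAs that match them. The paper describes further let-7 family members that this deletion leaves in place, so it is a partial loss of the family. The sequences are from RefSeq, and the genes lie on chromosome 13 of GRCm38.p6, minus strand, at 48538239 to 48538260 for let-7a, 48536078 to 48536099 for let-7d and 48537889 to 48537910 for let-7f. The capitals mark the seed, bases 2 to 8, which the 3 share.
let-7a-5p: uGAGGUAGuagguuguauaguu
let-7d-5p: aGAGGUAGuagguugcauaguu
let-7f-5p: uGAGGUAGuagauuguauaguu

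The letters CTACCTC, which pair with the seed, were looked up in the 3' UTRs of the tested genes, with the longest UTR of GENCODE M21 taken for each. It occurred in 1 of 78 members (1.28%), against 1575 of 15423 genes (10.21%). The members' 3' UTRs are short, with a median of 199 bases against 1113 bases, and per 100 kb of 3' UTR there were 3.17 matches in the members and 7.32 in all genes. The member that holds it is Cox7b, a small complex IV subunit, 372 bases into a 3' UTR of 627 bases.
Cox7b site (match in capitals): ttactgccctCTACCTCgtggttatat
Cox7b was at 447, 515 and 313 CPM in let-7 WT kidneys 1 to 3 and at 470, 591 and 665 CPM in let-7 KO kidneys 1 to 3. The groups overlapped, and a match of these letters is a description, not a site shown to act.

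Promoters of OXPHOS genes are known for sites of NRF1 and of ETS family factors such as GABPA. Of the 80 members 63 had a promoter window in RefSeq's annotation of GRCm38.p6, from 250 bases before to 50 after the start, and each window was searched on both strands. The NRF1 motif, GCGCA and GCGC with any base between them, occurred in 15 of the 63 member windows (23.81%) and in 9.66% of 12239 windows of genes tested or members. The ETS motif CCGGAAG occurred in 14 (22.22%, against 16.66%) and the YY1 motif AAGATGG in 10 (15.87%, against 7.64%). The NRF1 motif was found in 6 of 13 complex V windows, 7 of 32 in complex I, 1 of 5 in complex III and 1 of 13 in complex IV. The stretches below are shown because the motif (in capitals, for Ndufa8, Ndufs6 and Atp5e on the opposite strand) lies within 60 bases before the start, or 60 to 120 bases before it for Atp5e, in members of complexes I and V.
Ndufa8 (NRF1, chr2:36049339-36049398, minus strand): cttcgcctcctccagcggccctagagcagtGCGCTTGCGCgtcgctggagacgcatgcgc
Ndufs6 (NRF1, chr13:73328483-73328542, minus strand): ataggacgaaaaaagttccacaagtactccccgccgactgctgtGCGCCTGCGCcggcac
Atp5g2 (NRF1, chr15:102671048-102671107, minus strand): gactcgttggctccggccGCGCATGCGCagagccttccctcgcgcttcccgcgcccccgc
Ndufs3 (ETS, chr2:90904722-90904781, minus strand): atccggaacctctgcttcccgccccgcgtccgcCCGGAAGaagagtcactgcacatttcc
Ndufb7 (ETS, chr8:83566698-83566757, plus strand): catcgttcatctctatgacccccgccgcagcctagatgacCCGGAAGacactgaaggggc
Atp5e (ETS, chr2:174464162-174464221, minus strand): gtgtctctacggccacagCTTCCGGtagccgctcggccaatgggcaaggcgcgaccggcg
The 14 tested members with the NRF1 motif had a median log2 fold change of 0.14 in LIN28B-Wt1 kidneys, against 0.23 for 47 without. The let-7 KO medians were 0.37 for 14 with it and 0.40 for 46 without. For the ETS motif the medians with and without it were 0.27 and 0.22 (LIN28B-Wt1) and 0.50 and 0.38 (let-7 KO). For the YY1 motif they were 0.29 and 0.22 (LIN28B-Wt1) and 0.41 and 0.39 (let-7 KO). Members with the motif thus had the lower median for NRF1 and the higher for ETS and YY1. These differences were not tested.

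Levels of different genes were compared per kilobase of transcript (RPKM, means of 12 kidneys). Complex V members had a median of 795 RPKM, complex III 753 RPKM, complex IV 480 RPKM and complex I 397 RPKM. The highest was Atp5b, the catalytic beta subunit of the ATP synthase, at 1801 RPKM, followed by Cox6c, a small complex IV subunit, at 1686 RPKM and Atp5g3, which encodes the membrane ring subunit c, at 1675 RPKM. At the low end stood tissue-restricted isoforms, with Cox8b at 5.11 RPKM, Cox6a2 at 0.39 RPKM and Cox7b2 at 0.12 RPKM. Ndufs5, an accessory subunit that complex I needs in every tissue, and the testis isoform Cox8c had 0 counts in all 12 kidneys, which allows up to 3 counts in each. Ndufs1, the largest core subunit of complex I, was the lowest of the other complex I members bar Ndufa4l2 (36.2 RPKM), at 79.8 RPKM, and the cause of the 0 of Ndufs5 was not tested. Many OXPHOS genes have processed pseudogenes, and reads shared with such copies could be counted at either place or dropped.

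LIN28B-Wt1 against control kidneys asked whether OXPHOS subunit mRNAs change when LIN28B is induced in cells with Wt1-Cre activity. Of 76 members tested, 0 were raised and 1 was lowered at p below 0.01 (edgeR quasi-likelihood test), where 3.25% of all 15793 genes tested were raised and 4.08% lowered. At an unadjusted p below 0.05, 2 were raised and 2 lowered, beside 1347 and 1497 of all 15793 genes tested. With edgeR no member passed an adjusted p of 0.05, which 1.23% of all genes passed, and with a correction for transcript length 1 did (Ndufa4l2; 3.84% of all genes). DESeq2 raised 1 and lowered 2 at p below 0.01 (5.51% and 5.42% of all genes), and 3 members passed its adjusted p of 0.05 (Cox8b, Ndufa4l2 and Ndufb7; 8% of all genes). The median log2 fold change was 0.19 over the members and -0.02 over all genes, and 64 of 76 members had a positive value. The medians by complex were 0.22 for complex I, 0.23 for complex III, 0.17 for complex IV and 0.18 for complex V. No member had all 3 LIN28B-Wt1 kidneys above all controls (10.3% of all genes), and Ndufa4l2 and Ndufs1 had all 3 below (13.5% of all genes).

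**Figure D1:**
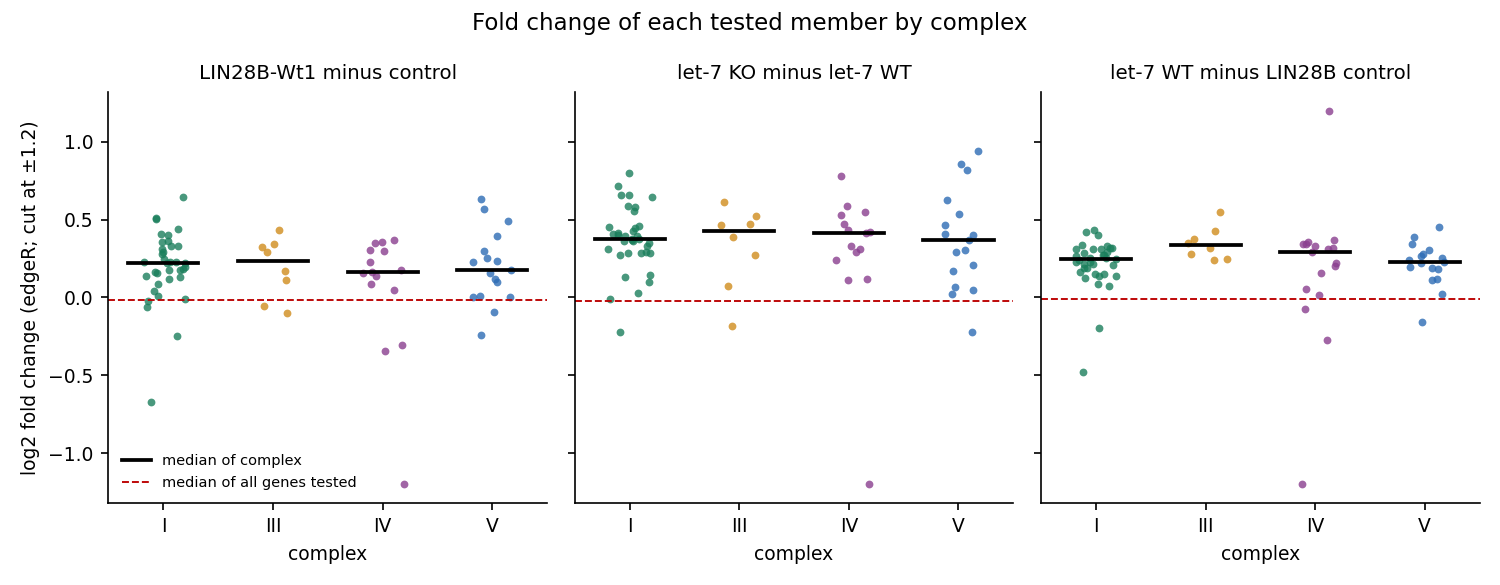
Log2 fold change (edgeR, y axis, values beyond 1.2 drawn at the edge) of each tested member by complex in LIN28B-Wt1 against control, let-7 KO against let-7 WT and let-7 WT against LIN28B control kidneys. Black bars are medians of a complex and the dashed line is the median of all genes tested; the medians of the 4 complexes lie between 0.17 and 0.23 in the LIN28B model and between 0.37 and 0.43 in the let-7 model.

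The kidneys of the LIN28B-Wt1 group did not move together. Against the mean of the 3 controls, on the log2(CPM + 0.5) scale, the median member was 0.38 higher in LIN28B-Wt1 kidney 1 and 0.45 higher in kidney 2, and it was at -0.33 in kidney 3. The controls lay at -0.12, -0.03 and 0.16. In all 4 complexes kidneys 1 and 2 lay above the 3 controls and kidney 3 below them, with complex III at 0.44, 0.54 and -0.40 and complex V at 0.42, 0.38 and -0.30 in LIN28B-Wt1 kidneys 1 to 3. The 80 members took 3.70%, 3.75% and 2.54% of all counts in these kidneys and 2.94%, 3.04% and 3.31% in the controls, means of 3.33% ± 0.69 and 3.10% ± 0.19 (SD, n = 3; exact permutation test, two-sided, p = 0.7, smallest possible 0.1).

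**Figure D2:**
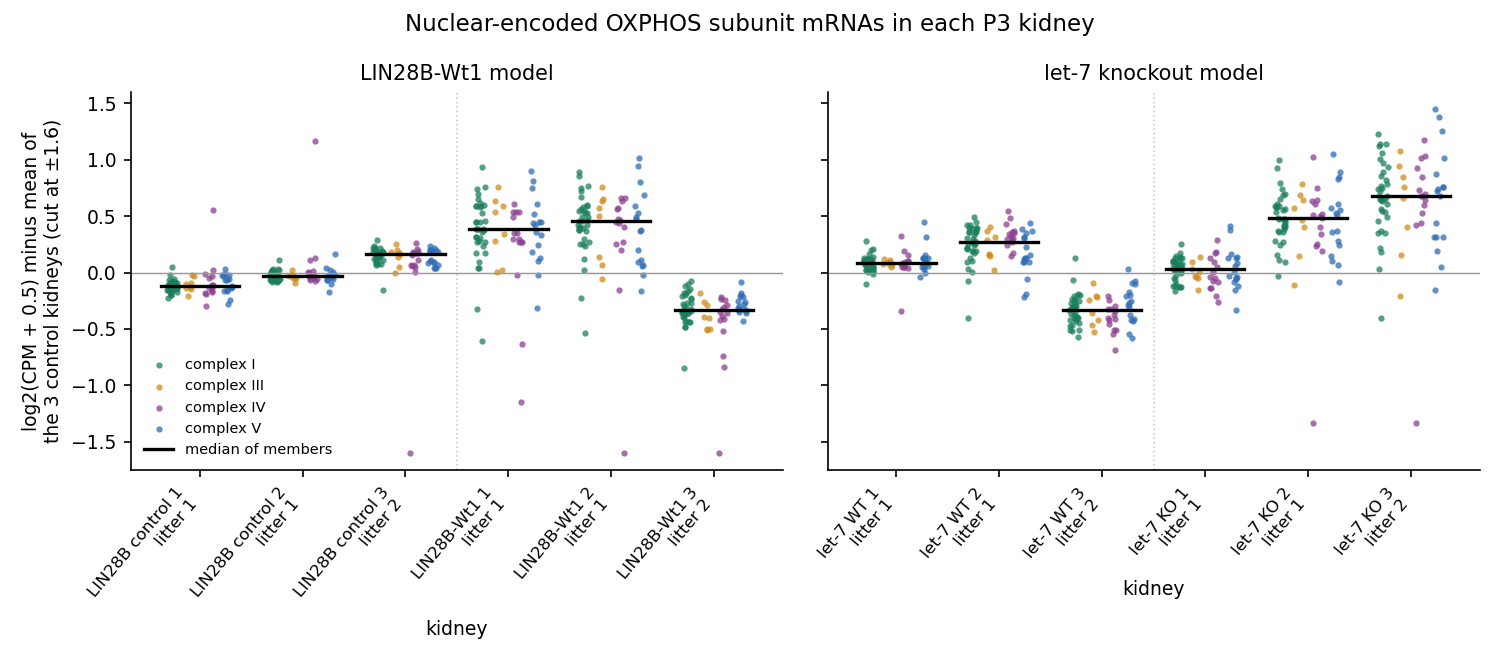
Each tested member (points, coloured by complex) in each kidney, as log2(CPM + 0.5) minus the mean of the 3 control kidneys of its model (y axis, cut at 1.6 either way), with the median of the members as a black bar. LIN28B-Wt1 kidneys 1 and 2 lie at 0.38 and 0.45 and kidney 3 at -0.33, while let-7 KO kidneys lie at 0.03, 0.48 and 0.68.

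Within the first litter, 69 of 76 members were higher in the 2 LIN28B-Wt1 kidneys than in the 2 controls, with a median difference of 0.48. Within the second litter, all 76 were lower in the LIN28B-Wt1 kidney than in its control, with a median of -0.48 from 1 kidney of each kind and no replicate. Fitted on the first litter alone, 57 of 76 members were raised at p below 0.01 (10% of all genes) and 1 was lowered (1197 of all 15919 genes). In either direction, 58 passed an adjusted p of 0.05 (16.3% of all genes). Without LIN28B-Wt1 kidney 3 the fit raised 44 of 76, where 7.70% of all genes were raised, and the median rose to 0.40. The count of raised members thus went from 0 to 44 with 1 library left out. The fit on the first litter was added after the split between kidneys was seen.

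In complex I, the 7 core subunits that carry the electron path had a median log2 fold change of 0.14. The 29 other tested members counted under it, Ndufa4 and Ndufa4l2 included, had a median of 0.23. The core transcripts run from 758 bases (Ndufs7) to 2590 bases (Ndufs1), against a median of 681.5 bases over all members. The part of transcript length in this contrast was not tested. Ndufs1 stood at 213, 222 and 185 CPM in the controls and at 165, 176 and 180 CPM in the LIN28B-Wt1 kidneys. The groups did not overlap, and the log2 fold change was -0.25 ± 0.13 (SE; edgeR adjusted p = 0.356; exact permutation p = 0.1). Ndufs7, which carries an iron-sulphur cluster near the ubiquinone site, stood at 239, 248 and 295 CPM in controls and at 399, 391 and 214 CPM in LIN28B-Wt1 kidneys, with kidneys 1 and 2 above all controls and kidney 3 below. Its log2 fold change was 0.36 ± 0.22 (adjusted p = 0.436). The accessory subunit Ndufb7, at the membrane arm, had the highest value of the complex, with 194, 201 and 238 CPM in controls and 402, 389 and 200 CPM in LIN28B-Wt1 kidneys (0.65 ± 0.24, adjusted p = 0.19). Ndufb3, whose mRNA LIN28A is known to bind, was at 110, 114 and 126 CPM in controls and at 153, 154 and 103 CPM in LIN28B-Wt1 kidneys (0.22 ± 0.17). Ndufb8, the other such mRNA, was at 471, 494 and 554 CPM in controls and at 730, 729 and 449 CPM in LIN28B-Wt1 kidneys (0.33 ± 0.18). Both followed the split between kidneys and did not pass the test.

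Ndufa4l2, a paralog of Ndufa4 known as a target of hypoxia-inducible factor, was the only member lowered in LIN28B-Wt1 kidneys at p below 0.01. It stood at 38.7, 42.3 and 48.8 CPM in controls and at 28.1, 29.6 and 23.8 CPM in LIN28B-Wt1 kidneys. All 3 LIN28B-Wt1 kidneys were below all controls, the log2 fold change was -0.67 ± 0.18 (edgeR p = 0.00404, adjusted p = 0.0968), and the exact permutation test gave p = 0.1, its smallest. Its share of the summed level per length of Ndufa4 and Ndufa4l2 was 3.61% ± 0.12 in controls and 2.06% ± 0.47 in LIN28B-Wt1 kidneys (SD, n = 3). The call at p below 0.01 was lost without control kidney 2 (-0.69) or control kidney 3 (-0.56), and on the first litter alone (-0.46), and it was kept with the litter block and with a correction for transcript length. In the let-7 model the groups overlapped, at 28.4, 40.1 and 24.7 CPM in WT and 27.8, 34 and 39.4 CPM in KO kidneys (0.10 ± 0.26). Its share of the pair was 2.13% ± 0.18 in WT and 1.70% ± 0.07 in KO kidneys, lower in each KO kidney than in any WT kidney. Its partner Ndufa4 was at 0.43 ± 0.23 there, so the lower share does not show a fall of Ndufa4l2 itself. For Ndufa4l2 the difference between the 2 models was -0.79 ± 0.31 (edgeR adjusted p = 0.716).

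Of the members counted under complexes III, IV and V, none passed p below 0.01 in the LIN28B comparison. Uqcrq, a small complex III subunit, had the highest value of its complex (0.43 ± 0.29, adjusted p = 0.488) and the core protein gene Uqcrc2 the lowest (-0.10 ± 0.12, adjusted p = 0.738). Uqcrfs1, the Rieske iron-sulphur protein, was at -0.06 ± 0.12 and Uqcrc1, the other core protein, at 0.11 ± 0.15. In complex IV, Cox4i1, the ubiquitous subunit 4, was at 882, 940 and 1104 CPM in controls and at 1404, 1445 and 745 CPM in LIN28B-Wt1 kidneys (0.30 ± 0.22, adjusted p = 0.54). In complex V the catalytic subunits were at 0.00 ± 0.11 (Atp5a1) and -0.10 ± 0.10 (Atp5b). Atp5e, the small epsilon subunit, was highest at 0.63 ± 0.29 (edgeR adjusted p = 0.292). The transcripts have 2471 (Atp5a1), 1916 (Atp5b) and 421 bases (Atp5e). Atp5e stood at 216, 259 and 298 CPM in controls and at 478, 517 and 206 CPM in LIN28B-Wt1 kidneys, again split between kidneys 1 and 2 and kidney 3.

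let-7 KO against let-7 WT kidneys asked the same of a constitutive loss of 3 let-7 genes. Of 76 members tested, 1 was raised and 0 were lowered at p below 0.01, where 1.10% of all 15500 genes tested were raised and 1.63% lowered. At an unadjusted p below 0.05, 15 were raised and 0 lowered (edgeR), beside 819 and 862 of all 15500 genes tested. DESeq2 raised 10 and lowered 0 at p below 0.01 (2.97% and 2.47% of all genes). With edgeR no member passed an adjusted p of 0.05, which 0.0194% of all genes passed, and with DESeq2 1 did (Atp5o; 1.04% of all genes). The median log2 fold change was 0.38 over the members and -0.02 over all genes, and 71 of 76 members had a positive value. By complex the medians were 0.37 for complex I, 0.43 for complex III, 0.42 for complex IV and 0.37 for complex V. Atp5h, Atp5o and Ndufv2 had all 3 KO kidneys above all WT kidneys (7.87% of all genes), and no member had all 3 below (8.79% of all genes).

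By kidney, the median member lay at 0.08, 0.27 and -0.33 in let-7 WT kidneys 1 to 3 and at 0.03, 0.48 and 0.68 in let-7 KO kidneys 1 to 3, so the groups overlapped. The members took 3.66%, 3.93% and 2.998% of all counts in WT and 3.51%, 4.32% and 4.77% in KO kidneys, means of 3.53% ± 0.48 and 4.2% ± 0.64 (SD, n = 3; exact permutation test, two-sided, p = 0.3). The first litter gave a median difference of 0.08, with 53 of 76 members higher in KO, and the second, with 1 kidney of each genotype, gave 1.07, with 73 of 76 higher. Fitted on the first litter alone, 0 members were raised at p below 0.01 (0.238% of all genes) and the median log2 fold change was 0.07. Without let-7 KO kidney 1, 15 members were raised, where 3.65% of all genes were, and the median was 0.53. Leaving out either of the other KO kidneys, or WT kidney 2 or 3, left 0 raised, and leaving out WT kidney 1 gave 2.

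Atp5o, which encodes the stalk subunit of the ATP synthase that confers oligomycin sensitivity, was the member raised in let-7 KO kidneys. It stood at 728, 503 and 547 CPM in WT and at 776, 1085 and 1399 CPM in KO kidneys. The groups did not overlap, though KO kidney 1 was close to WT kidney 1, and the log2 fold change was 0.85 ± 0.23 (edgeR p = 0.00371, adjusted p = 0.362; exact permutation p = 0.1). Its promoter window holds the NRF1 motif 9 bases after the start. The call was lost on the first litter alone (0.58) and without WT kidney 2 (0.76), WT kidney 3 (0.79), KO kidney 2 (0.86) or KO kidney 3 (0.64).

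Atp5e had the highest value of complex V in let-7 KO kidneys, with 302, 242 and 148 CPM in WT and 288, 459 and 604 CPM in KO kidneys (0.94 ± 0.30, adjusted p = 0.368). KO kidney 1 lay within the WT range and the other KO kidneys above it. Ndufb7 was again the highest of complex I, with 283, 311 and 196 CPM in WT and 277, 516 and 607 CPM in KO kidneys (0.80 ± 0.28, adjusted p = 0.377). Uqcr11, a small complex III subunit, was at 440, 529 and 298 CPM in WT and at 399, 707 and 868 CPM in KO kidneys (0.62 ± 0.29, adjusted p = 0.471). The same split, KO kidney 1 among the WT kidneys, held for each of these.

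Among the core subunits of complex I, Ndufs3, on the matrix arm, was at 234, 268 and 196 CPM in WT and at 260, 347 and 453 CPM in KO kidneys (0.58 ± 0.22, adjusted p = 0.392). Ndufs7 was at 0.55 ± 0.25, Ndufs8 at 0.40 ± 0.23, Ndufv1, which binds NADH, at 0.33 ± 0.20 and Ndufv2 at 0.31 ± 0.17. Ndufs1 was at -0.22 ± 0.21, and all 29 tested members counted as accessory subunits were above 0. Ndufb3 was at 0.28 ± 0.19 and Ndufb8 at 0.39 ± 0.24. In complex III, Uqcrc2 was the lowest at -0.18 ± 0.16 and Uqcrfs1 was at 0.08 ± 0.16. In complex V, Atp5a1 was at 0.02 ± 0.15, Atp5b at 0.07 ± 0.15 and Atp5s, a factor tied to the synthase but not one of its core subunits, the lowest at -0.22 ± 0.23.

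Transcript length moved with these values. Members are short, with a median transcript of 681.5 bases against 2100 bases for all genes. In let-7 KO kidneys the 28 tested members under 600 bases had a median log2 fold change of 0.45, the 31 from 600 to under 1200 bases 0.40, and the 17 of 1200 bases or more 0.21. Other genes of these classes had medians of 0.40 (440 genes), 0.30 (1628 genes) and -0.07 (13238 genes). In LIN28B-Wt1 kidneys the members' medians were 0.23, 0.23 and 0.01, and those of other genes 0.33, 0.18 and -0.04. Other short genes therefore had positive medians too. The longest class holds 17 members, too few for a firm reading.

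**Figure D3:**
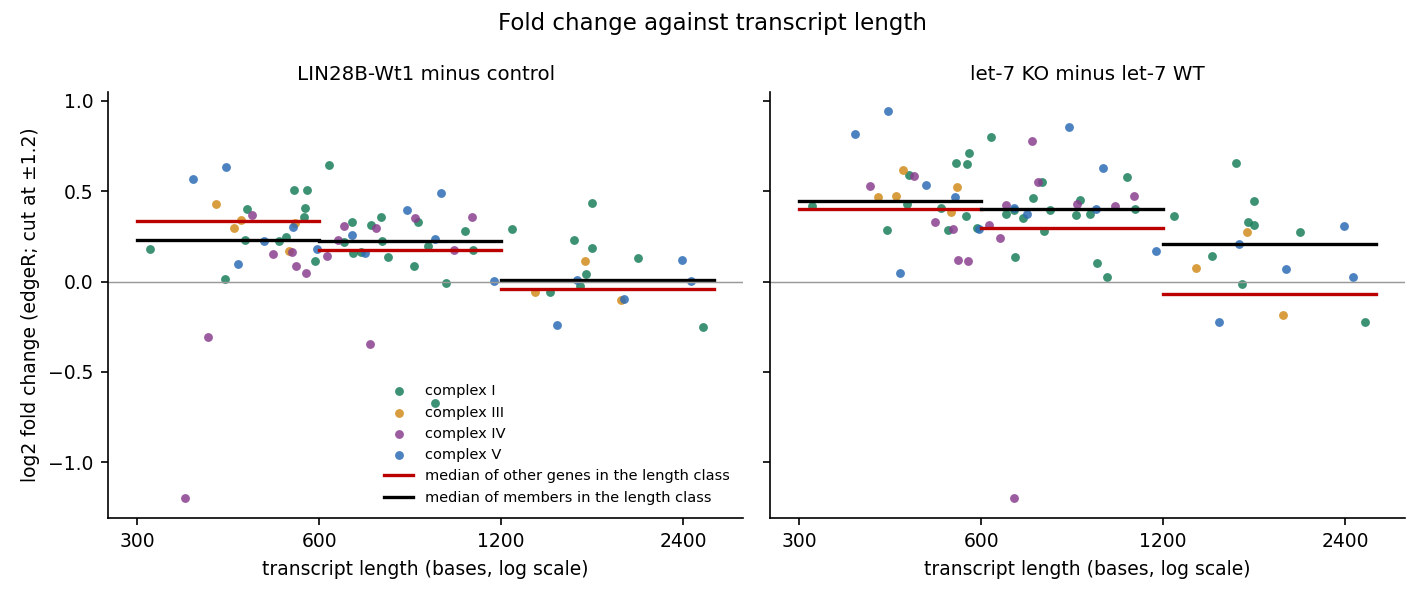
Log2 fold change (edgeR, y axis, values beyond 1.2 drawn at the edge) of each tested member against transcript length in bases (log axis), for LIN28B-Wt1 (left) and let-7 KO (right). Black bars are medians of members and red bars medians of all other genes under 600, from 600 to under 1200 and from 1200 bases; in the let-7 model they are 0.45, 0.40 and 0.21 for members and 0.40, 0.30 and -0.07 for other genes.

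Each library has its own trend of expression on transcript length, measured here as the slope of log2 CPM, relative to the mean of the 6 kidneys of its model, per doubling of length over 16450 genes. It was 0.09, 0.04 and -0.04 in LIN28B controls 1 to 3 and -0.09, -0.08 and 0.08 in LIN28B-Wt1 kidneys. In the let-7 model it was 0.08, -0.04 and 0.14 in WT and 0.04, -0.09 and -0.13 in KO kidneys. In every group the kidney with the highest slope had the lowest share of counts in the members. LIN28B-Wt1 kidney 3 was the only kidney of its group with a positive slope, and let-7 KO kidney 1 the only one of its group.

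**Figure D4:**
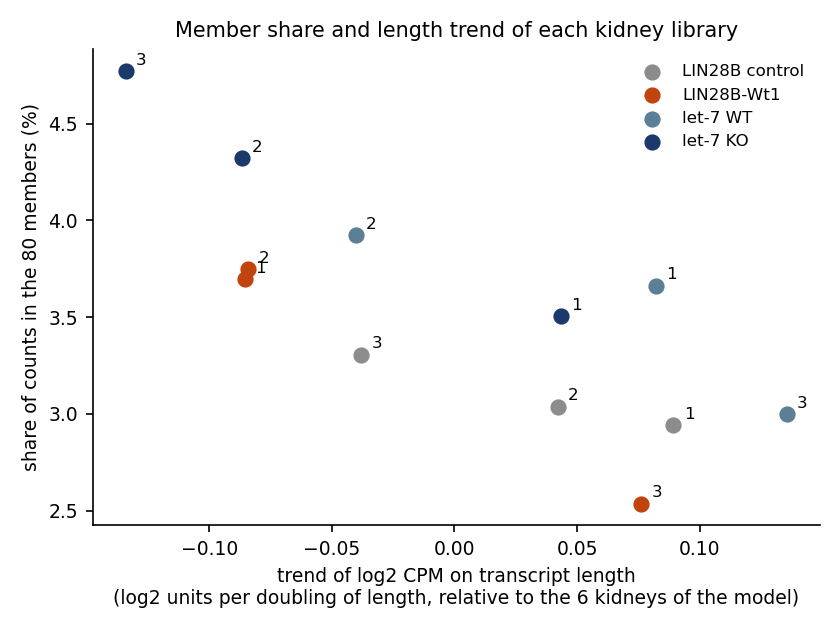
Share of all counts taken by the 80 members (%, y axis) against the length trend of the library (log2 units per doubling of transcript length, x axis, relative to the 6 kidneys of the model) for 12 kidneys, coloured by group and numbered by replicate. Shares run from 2.54% in LIN28B-Wt1 kidney 3 to 4.77% in let-7 KO kidney 3, and within each model the 3 libraries with a negative trend, richer in short transcripts, have the higher shares.

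With the length trend of each library removed by an offset in the fit, the members' median was -0.01 in LIN28B-Wt1 kidneys, with 37 of 76 positive, 0 raised (4.72% of all genes) and 2 lowered (4.51%). In let-7 KO kidneys it was 0.07, with 49 of 76 positive and 0 raised (1.26% of all genes). Atp5o then had a log2 fold change of 0.52 and was no longer called. With the litter as a replicate block beside the offset, the medians were -0.01 and 0.07 and again 0 members were raised in either model. For comparison, the 79 tested ribosomal proteins, short as well, had medians with the offset of 0.47 (LIN28B-Wt1) and 0.35 (let-7 KO), and of 0.70 and 0.66 without it. How the length trends arose was not tested, and a true change of short mRNAs as a class would be removed by the offset too.

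Several complex IV subunits come as a ubiquitous and a tissue-restricted isoform. Cox8b, the heart, muscle and brown fat form of subunit 8, stood at 6.58, 10.3 and 0.97 CPM in LIN28B controls 1 to 3 and at 1.68, 0.21 and 0.66 CPM in LIN28B-Wt1 kidneys (-2.80 ± 0.95, adjusted p = 0.163). It stood at 0.05, 0.00 and 0.05 CPM in let-7 WT kidneys and at 0.07, 1.47 and 0.00 CPM in let-7 KO kidneys, the former at or under the floor. High values were thus confined to controls 1 and 2, and the groups of the LIN28B model overlapped. Of the 5 brown fat markers (Ucp1, Cidea, Adipoq, Plin1 and Elovl3), all but Elovl3 moved with it. The 5 summed to 59.2 and 65.3 CPM in controls 1 and 2 and to 0.00 to 10.6 CPM in the other 10 kidneys. Ucp1, which uncouples brown fat mitochondria, was at 16.9 and 13.9 CPM in those 2 controls and at 0.00 to 2.37 CPM in the other kidneys, and Elovl3 was at 0 except in control 3, at 0.46 CPM. The summed skeletal muscle markers were 1.78 to 6.51 CPM in all 12 kidneys. The part of perirenal fat in the Cox8b values was not tested.

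**Figure D5:**
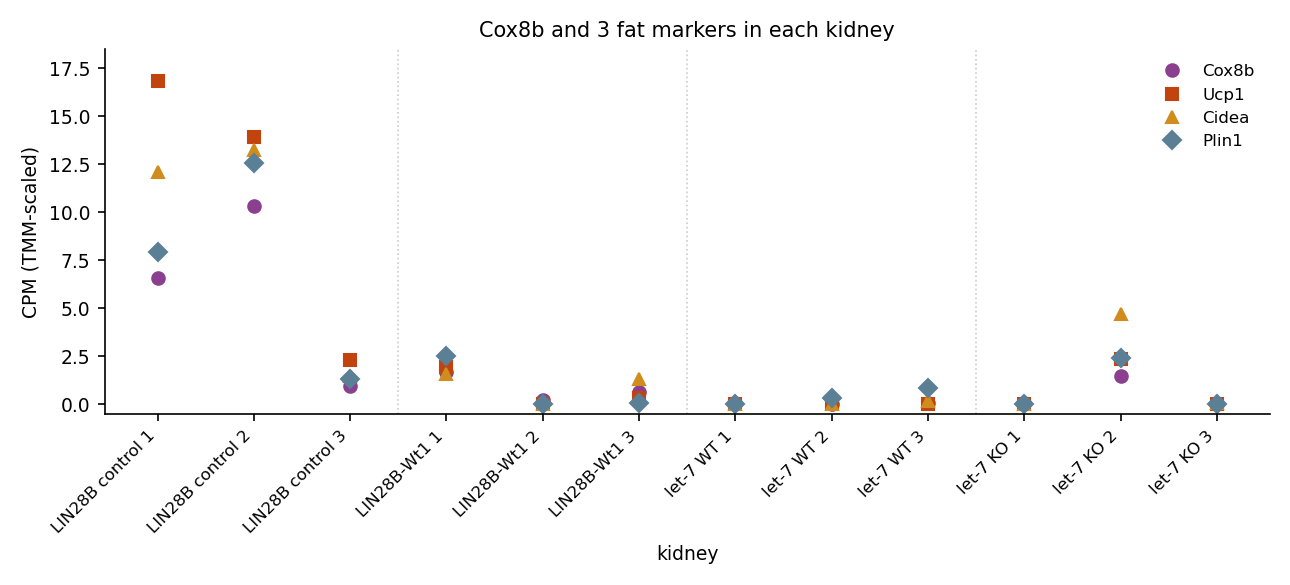
Levels (CPM, TMM-scaled, y axis) of Cox8b, Ucp1, Cidea and Plin1 in each of the 12 kidneys (x axis). LIN28B controls 1 and 2 hold the high values of all 4 genes, with Cox8b at 6.58 and 10.3 CPM and Ucp1 at 16.9 and 13.9 CPM.

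Cox6a2, the heart and muscle form of subunit 6a, showed a different pattern at very low levels. It was at 0.80, 0.99 and 0.53 CPM in let-7 WT kidneys and at 0.76, 0.00 and 0.00 CPM in let-7 KO kidneys, and at 0.00 to 0.08 CPM in the 6 kidneys of the LIN28B model. Its fitted difference in the let-7 model, -1.57 ± 1.82 (adjusted p = 0.797), was within the spread. Cox4i2, the lung isoform of subunit 4, was at 5.28, 10.2 and 5.84 CPM in let-7 WT and 8.45, 14.4 and 14.3 CPM in KO kidneys (0.78 ± 0.40, adjusted p = 0.508). Per length, Cox7a1, the muscle form, made up 3.69% ± 0.38 of Cox7a1 and Cox7a2 together in LIN28B controls and 2.504% ± 0.32 in LIN28B-Wt1 kidneys, with the 3 kidneys of each group apart, and 4.32% ± 0.52 and 4.69% ± 0.89 in let-7 WT and KO kidneys. Cox6b2, the testis form, made up 4.48% ± 0.22 and 5.21% ± 0.38 of subunit 6b in the LIN28B model and 3.10% ± 0.20 and 3.58% ± 0.69 in the let-7 model, in control and mutant kidneys. The ubiquitous partners Cox6a1, Cox7a2 and Cox8a had log2 fold changes of 0.05, 0.31 and 0.08 (LIN28B-Wt1) and of 0.11, 0.42 and 0.12 (let-7 KO). Of the 3 genes for subunit c of complex V, Atp5g1, Atp5g2 and Atp5g3 were at 0.18, 0.10 and 0.16 in LIN28B-Wt1 kidneys and at 0.29, 0.05 and 0.37 in let-7 KO kidneys. Cox7a2l, a factor of respiratory supercomplexes, was at 0.36 ± 0.22 and 0.47 ± 0.22.

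The 2 models were set against each other in a fit of all 12 kidneys. Of 78 members tested, 1 differed between models at p below 0.01 (edgeR), where 1.55% of all 16598 genes did. No member passed an adjusted p of 0.05 (0.00602% of all genes). At an unadjusted p below 0.05, 0 were higher and 2 lower in the LIN28B model, beside 430 and 611 of all genes. DESeq2 called 1 at p below 0.01, where it called 2.49% of all genes. The member called by edgeR was Cox8b, at -6.63 ± 2.19 (adjusted p = 0.61). With the litter as a replicate block Cox8b was no longer called (-5.45). The fitted size rests on let-7 WT kidneys at or under the floor and is no bound. The members' median difference was -0.19 and 75 of 78 were below 0, and without LIN28B-Wt1 kidney 3 the median was 0.02. Apart from Cox8b, the highest and lowest of each complex were Ndufc2 (0.01) and Ndufa4l2 (-0.79), Uqcrc2 (0.06) and Uqcr11 (-0.30), Cox5a (-0.03), and Atp5g2 (0.03) and Atp5o (-0.48).

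The control groups also differed, in strain, litter and doxycycline history together. Of 78 members 0 were higher and 1 was lower in let-7 WT than in LIN28B control kidneys at p below 0.01 (edgeR). Of all genes 1.95% were higher and 1.37% lower. At an unadjusted p below 0.05, 3 members were higher and 2 lower, beside 849 and 741 of all 16598 genes. DESeq2 called 2 higher and 1 lower at p below 0.01 (2.89% and 2.27% of all genes). With edgeR no member passed an adjusted p of 0.05 (0.627% of all genes), and with DESeq2 1 did (Cox8b; 2.39% of all genes). The member was Cox8b (edgeR -7.35 ± 1.85, adjusted p = 0.11), whose high values stood in LIN28B controls 1 and 2, the kidneys high in brown fat markers. Without these it was at -4.75 and no longer called, with 1 LIN28B control left, which is assumed to vary like the other groups. The median log2 fold change was 0.25, with 72 of 78 positive, and the complexes had medians of 0.25 (I), 0.33 (III), 0.29 (IV) and 0.23 (V). In all 3 let-7 WT kidneys Atp5a1, Atp5b, Atp5c1, Uqcrc1, Uqcrc2, Uqcrfs1 and Cox6a2 were above all LIN28B controls, 7 of 78 members (9.38% of all genes), and Cox8b was below them in all 3 (10.1% of all genes). Atp5b was at 3102, 3086 and 3229 CPM in LIN28B controls and at 4090, 3605 and 3555 CPM in let-7 WT kidneys. Ndufa6 (0.43), Uqcrq (0.55), Cox6a2 (4.30, from levels near the floor) and Atp5g1 (0.45) had the highest values of their complexes, and Ndufa4l2 (-0.48), Uqcrh (0.24) and Atp5e (-0.16) the lowest of complexes I, III and V. In contrast to the mutant comparisons, the median with the length offset was 0.23, with 10 members higher (2.75% of all genes) and 2 lower (1.57%). The summed proximal tubule markers moved with it, from 3051 to 3241 CPM in LIN28B controls to 4327 to 4974 CPM in let-7 WT kidneys, and their part in the result was not tested.

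The rest of the pathway was read from lists. The 4 nuclear genes of complex II, which feeds electrons from succinate, had 0 of 4 called in either mutant comparison (edgeR; at an unadjusted p below 0.05, 1 was lowered in LIN28B-Wt1). Their medians were -0.17 (LIN28B-Wt1) and -0.05 (let-7 KO), below those of the other complexes. Sdha, the flavoprotein subunit, was at 659, 568 and 541 CPM in LIN28B controls and at 433, 470 and 500 CPM in LIN28B-Wt1 kidneys (-0.33 ± 0.13, adjusted p = 0.211), with no overlap. Cycs and Cyc1, cytochromes c and c1, were at 0.09 and 0.12 (LIN28B-Wt1) and at 0.08 and 0.13 (let-7 KO). None of the 13 mitochondrially encoded subunits was found by symbol among the counted genes, so they are not analysed here.

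Of 39 tested assembly factors, 0 were raised and 0 lowered in LIN28B-Wt1 kidneys (edgeR; 2 raised at an unadjusted p below 0.05), with a median of 0.07, and without LIN28B-Wt1 kidney 3 the fit raised 6 and lowered 1. The let-7 comparison had 1 factor lowered and 0 raised (at an unadjusted p below 0.05, 3 lowered and 2 raised), with a median of 0.11. The lowered factor was Coa5, needed for complex IV assembly (-0.68 ± 0.18, adjusted p = 0.362), and its call was lost on the first litter alone (-0.65) and without WT kidney 1 (-0.69) or KO kidney 2 (-0.58). Among 13 regulators of mitochondrial biogenesis, Tfb1m, a mitochondrial rRNA methyltransferase, was raised in LIN28B-Wt1 kidneys, from 8.91, 6.38 and 7.27 CPM to 15.3, 15.3 and 15.2 CPM (1.02 ± 0.25, adjusted p = 0.0806). All 3 kidneys were above all controls, kidney 3 included, and the call was lost on the first litter alone (1.03) and without control kidney 2 (0.92). Ppargc1a, the PGC-1α coactivator of OXPHOS genes, was lowered in let-7 KO kidneys, from 82.5, 76.7 and 73.8 CPM to 51.1, 50.9 and 54.6 CPM (-0.59 ± 0.17, adjusted p = 0.362), also without overlap. That call at p below 0.01 was lost with the litter as a replicate block (-0.59), with the length offset (-0.46), on the first litter alone (-0.66) and with any 1 of the 6 kidneys left out (-0.63 to -0.54). In LIN28B-Wt1 kidneys Ppargc1a was at 43.8, 41.4 and 39.0 CPM against 74.7, 49.9 and 54.8 CPM (-0.53 ± 0.19, adjusted p = 0.177). These values stood beside subunit mRNAs with positive medians in both models.

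Markers of tubule segments moved with genotype in the LIN28B model. Of 10 proximal tubule markers 7 were lowered and 0 raised in LIN28B-Wt1 kidneys (4 lowered without control kidney 3), and their sum was 1336 to 1639 CPM against 3051 to 3241 CPM in controls. Thick limb and distal tubule markers summed to 392 to 535 CPM against 843 to 1270 CPM, with 4 of 5 lowered, and all 6 nephron progenitor markers were raised. In let-7 KO kidneys 2 of 10 proximal tubule markers were lowered (1 without WT kidney 3, KO kidney 1 or KO kidney 2), with sums of 3263 to 4359 CPM against 4327 to 4974 CPM. Their thick limb and distal tubule markers summed to 699 to 1267 CPM against 1222 to 1420 CPM, with 0 of 5 called (edgeR, 2 lowered at an unadjusted p below 0.05). Of these 5, 1 was lowered with each of DESeq2, the litter as a replicate block and the fit of all 12 kidneys, and 2 without let-7 KO kidney 1. Nephron progenitor markers of let-7 KO kidneys summed to 75.8 to 113 CPM against 50.5 to 52.4 CPM with no overlap. Of these 6, 0 were called (edgeR, 1 raised at an unadjusted p below 0.05). DESeq2 raised 1, the fit of all 12 kidneys 2, and the fit without let-7 KO kidney 1 raised 1. The part of this marker shift in the subunit values was not tested. The 14 proteasome subunits had medians of 0.42 and 0.37 in the 2 models and the 79 ribosomal proteins 0.70 and 0.66, so the OXPHOS members' medians of 0.19 and 0.38 were not the highest among such widely expressed groups.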

How the data were processed

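RNA-seq was done on whole kidneys of 12 mice. Per the labels, the deposited values are raw counts of reads for each gene symbol and kidney, made by the authors with cutadapt, TopHat2 2.0.9, Bowtie2, SAMtools 0.1.19 and HTSeq on mm10; roles and settings beyond these names are not given in the sources used here. Libraries were made from full-length cDNA by SMARTer amplification, and no molecular identifiers are named.

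Counts were tested with edgeR 4.0.16 (R 4.3.3; TMM, filterByExpr, quasi-likelihood), each model alone, and models and controls in a fit of all 12 kidneys. Calls are at an unadjusted p below 0.01, as in the study; adjusted p-values are Benjamini-Hochberg over all genes tested. DESeq2 1.42.0, other normalizations and filters, a litter block, a length offset and leaving out each kidney were alternatives. Scripts were tested on simulated data. CPM are TMM-scaled. RPKM and length trends used 1 transcript per gene (GENCODE M21, the shortest complete CCDS transcript of the best APPRIS rank).

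Members named are those called, the highest and lowest of each complex, and a fixed set of core subunits and isoforms. Members and lists were chosen with earlier results of these data known. A result on a single member is not reported here. The titles number litters, which pairs the samples. Gene deviations of control and mutant kidneys of the same litter correlated at -0.188 to -0.022 (LIN28B) and -0.185 to 0.080 (let-7). Pairs from different litters correlated at 0.042 to 0.174 (LIN28B) and -0.085 to 0.153 (let-7). The correlations thus show no greater likeness within a litter. Replicates differed beyond sampling noise, and p-values measure the spread among 3 mice a group. Floors cover counting error only, while the ± values are standard errors of the fit or SDs over 3 kidneys and include the spread between mice.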

Additional observations from a re-analysis of the deposited data

Results flagged for a closer look

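For Cox8b, a test of the difference between the 2 models gave an unadjusted p below the 0.01 used for calls (edgeR, adjusted p = 0.61). The fitted difference was -6.63 on the log2 scale (LIN28B effect minus let-7 effect). Cox8b was not among the genes tested in the let-7 model alone, so that fit gave no effect for it. In the LIN28B model its high values stood in controls 1 and 2, the kidneys high in brown fat markers. Without let-7 KO kidney 2, which held 1.47 CPM while the other let-7 KO kidneys held 0.07 and 0.00 CPM, the difference was -2.91 and no longer called. No outlier test was run on single kidneys, since each group holds 3.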

How the results depend on the processing

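Members raised in LIN28B-Wt1 kidneys numbered 1 with DESeq2, 57 on the first litter alone and 0 to 44 with 1 kidney left out, 44 only without LIN28B-Wt1 kidney 3. Members lowered numbered 2 with DESeq2 (5.42% of all genes) and 2 with the length offset (4.51%). With the offset from longest transcripts they numbered 3, where 729 of all 15793 genes were lowered. With 1 kidney left out they numbered 0 to 2, 2 only without LIN28B-Wt1 kidney 1, where 542 of all 16261 genes were lowered. Without the 2 controls high in brown fat markers, which leaves 1 LIN28B control, the members' median was 0.066. The median was 0.51 on the first litter alone. Members raised in let-7 KO kidneys numbered 10 with DESeq2 (2.97% of all genes) and 2 with RLE or upper-quartile normalization (191 of all 15500 genes with each). With no filter they numbered 3 (221 of 18466 genes) and with a strict one 3 (213 of 12484 genes). They numbered 0 with the length offset (1.26% of all genes) and with that from longest transcripts (197 of 15500 genes). They also numbered 0 with offset and replicate block together (160 of 15500 genes) and on the first litter alone (0.238%). With 1 kidney left out they numbered 0 to 15, 15 only without let-7 KO kidney 1 (3.65%). With the offset from longest transcripts the let-7 median was 0.046 and 1 member was lowered, where 243 of all 15500 genes were. Members that differed between models went from 1 to 0 with the strict filter, the litter as a replicate block, every length offset and without the 2 controls high in brown fat markers, and lay at 0 to 1 with 1 kidney left out. Against LIN28B controls, let-7 WT kidneys had 2 members higher with DESeq2 (2.89% of all genes) and 10 with the length offset (2.75%). They had 1 higher with RLE and 8 with the offset from longest transcripts, for which the shares of all genes are not given here. They had 2 lower with either offset (1.57% of all genes with the length offset) and 0 lower with the strict filter. With 1 kidney left out, 0 to 1 were higher. Some values that passed no test changed sign. Uqcrc2 in LIN28B-Wt1 was 0.011 on the first litter alone. Between models, Ndufc2 was -0.033 with the replicate block, -0.063 without the brown fat controls and -0.19 to 0.18 with 1 kidney left out. Cox5a was 0.12 with the length offset, 0.13 with offset and block, 0.14 with that from longest transcripts, and -0.20 to 0.22 with 1 kidney left out. Uqcrc2 was -0.021 to 0.16 and Atp5g2 -0.16 to 0.18 with 1 kidney left out. Between control groups Atp5e was -0.41 to 0.079 with 1 kidney left out. Among the members called, the replicate block changed only the call of Cox8b between models. Of Coa5, Tfb1m, Ppargc1a and Sdha it changed only the call of Ppargc1a in let-7 KO kidneys. Counts in other lists, such as the ribosomal proteins, changed with it too. The cause of these changes was not tested, except that a single litter or fewer kidneys are fewer samples. Of the list counts and medians under alternatives, 143 stayed close to the reported value and 51 did not. Alternatives on longest transcripts, the first litter, offset with block and the brown fat controls were chosen after seeing the data. Low counts limit Cox8b, Cox6a2 and Cox7b2.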
